A study of Mus musculus with 12 samples.

Results

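The 7 subunits of respiratory complex I that the mitochondrial genome encodes, mt-Nd1, mt-Nd2, mt-Nd3, mt-Nd4l, mt-Nd4, mt-Nd5 and mt-Nd6, were followed in RNA from tumour-specific CD8 T cells of mice under checkpoint blockade. They were taken by gene name on chromosome MT, as 7 of the 37 genes of that chromosome and 7 of the 48709 genes in the authors' deposited tables. All 7 were among the 17833 genes that the authors tested. The genes were chosen with their differences from isotype known, so those differences are a description of 12 libraries and not a test of the choice.

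A group of mice was given anti-CTLA-4, another anti-PD-1 DANA and another both antibodies (labelled Combo, called the combination here), and the controls were given an isotype antibody. DANA denotes a mutated Fc part with lowered binding to Fc receptors. All mice were wild type C57BL/6 animals of postnatal day 91 that had been injected with TRAMP-C2, a transplantable mouse prostate tumour line. The sample labels date the antibody doses to days 3, 6 and 9 and the series text dates them to days 3, 6 and 8, and draining lymph nodes were taken on day 28. The sort kept live cells positive for CD45, CD3, CD8 and Spas-1, a TRAMP-C2 antigen, and negative for Spas-2. Cells of 5 mice per group were pooled and each pool was divided into 3 libraries. The p-values therefore measure only the spread between divisions of 1 pool, and treatment and pool cannot be told apart. Each treatment has 1 deposited table against isotype and no library values are used here, so no overlap between libraries, standard deviation or depth per library is given.

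Complex I takes electrons from NADH, passes them to ubiquinone and pumps protons across the inner mitochondrial membrane. Its 7 mitochondrially encoded subunits form the core of the membrane arm, while nuclear genes encode the core of the peripheral arm and all accessory subunits. Each strand of mouse mitochondrial DNA is transcribed as a long precursor that is cut at tRNAs into the separate RNAs, and mt-Nd4l and mt-Nd4 stay joined in 1 bicistronic RNA. CD8 T cells draw on the respiratory chain when they are activated and for their long-term persistence.

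On GRCm38 the genes lie at chrM:2751-3707 (mt-Nd1, 957 bases), chrM:3914-4951 (mt-Nd2, 1038 bases), chrM:9459-9806 (mt-Nd3, 348 bases), chrM:9877-10173 (mt-Nd4l, 297 bases), chrM:10167-11544 (mt-Nd4, 1378 bases), chrM:11742-13565 (mt-Nd5, 1824 bases) and chrM:13552-14070 (mt-Nd6, 519 bases). Each is 1 exon, and the files and GENCODE M21 give the same coordinates for all 7. mt-Nd6 is on the minus strand and the other 6 are on the plus strand, and its transcript stands apart in base composition, with 43.7% T and 28.1% G against 27.4 to 32.8% T and 8.0 to 11.6% G in the others. Only mt-Nd4 has a length that is no multiple of 3, because its annotated sequence ends in a single T of the stop codon. The ends where neighbours overlap are shown because reads there fit both genes. The sequences are from the GENCODE M21 transcripts, in transcript orientation, with the shared bases in capitals.
mt-Nd4l, last 30 bases, chrM:10144-10173, plus strand: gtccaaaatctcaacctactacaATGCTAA
mt-Nd4, first 30 bases, chrM:10167-10196, plus strand: ATGCTAAaaattattcttccctcactaatg
mt-Nd5, last 30 bases, chrM:13536-13565, plus strand: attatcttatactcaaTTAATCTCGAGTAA
mt-Nd6, last 30 bases, chrM:13552-13581, minus strand: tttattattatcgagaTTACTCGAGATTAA
The stop codon of mt-Nd4l and the start codon of mt-Nd4 thus lie within the same 7 bases. The 3' ends of mt-Nd5 and mt-Nd6 cover the same 14 bases on opposite strands. The library protocol does not mark strand. Over all 519 bases of mt-Nd6, and not only in the overlap, its reads and those of opposite-strand RNA cannot be told apart. The mt-Nd6 values below are thus those of the gene together with any such reads.

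The start of mt-Nd3 is shown because this gene went the other way from its neighbours in the combination, and because a nuclear copy differs from it there. Its first codon is in capitals.
mt-Nd3, first 30 bases, chrM:9459-9488, plus strand: ATTaacctgtacactgttatcttcattaat
A pseudogene on chromosome 1, Gm28438, holds 98.0% of the 50-base windows of mt-Nd3 and differs from it over 345 bases by 1 substitution, T3C, counted from 1 at the first base of mt-Nd3. On the same chromosome, Gm10222 equals the first 294 bases of mt-Nd4l, and Gm28439 holds 62.2% of the windows of mt-Nd4. The share was 8.19% for mt-Nd2, 7.61% for mt-Nd5 and 0% for mt-Nd1 and mt-Nd6. Gm28438 and Gm10222 are listed at 0 in every one of the authors' deposited tables, and Gm28439 is listed at no more than 0.0119 RPKM there. How reads that fit both places were assigned is not given in the sources used here, so the values of mt-Nd3 and mt-Nd4l are those of the gene together with any such reads.

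The sort could be checked from the tables. All 8 CD8 T cell markers looked at (among them Cd8a, Cd8b1, Cd3e and Trac) were tested, with larger group means of 81.8 to 486 RPKM over the authors' deposited tables, and none was called in any comparison. Of 10 B cell markers 1 was called, Ms4a1, higher for anti-CTLA-4, beside 2.74% of all tested genes called higher there. The summed larger means of the B cell list were 1240 RPKM in the anti-CTLA-4 table, 625 in the anti-PD-1 DANA table and 590 in the combination table. Those of the CD8 T cell list were 2274, 2443 and 1971 RPKM in the same order of the authors' deposited tables. A larger mean can be that of isotype, so such sums are not levels of the treated groups. Of 10 myeloid markers 8 were tested. Adgre1, a defining macrophage gene, is listed at 0 in each of the authors' deposited tables. Lyz2 was the highest of the list, with larger means of 92.1, 54.6 and 49.1 RPKM in the same order of tables. C1qa had 11.4 RPKM in each of them. The 0 of Adgre1 alone thus does not show that myeloid cells were absent. In the myeloid list 3 were called lower for anti-CTLA-4, beside 1.49% of all tested genes. For anti-PD-1 DANA 1 was called higher and 1 lower, beside 2.43% and 1.32%. For the combination 2 were called lower, Lyz2 and Fcgr3, beside 3.59%. The summed larger means of the myeloid list in the authors' deposited tables were 126, 86.8 and 66.9 RPKM in the same order. Cd4 was called higher for anti-CTLA-4, beside 2.74% of all tested genes, with a larger group mean of 2.48 RPKM in the authors' deposited table. The part of other cell types in the values below was not tested.

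The levels come from the larger of the 2 group means that the authors' deposited tables give per comparison, in RPKM (reads scaled to transcript length and to the library's total). Over the 3 tables this shows most group means directly. The remaining 8, of which 6 are in the combination group, 1 is mt-Nd3 in isotype and 1 is mt-Nd6 in the anti-CTLA-4 group, were computed from the deposited fold change and the offset between the authors' scaling and RPKM described below. The mitochondrial complex I transcripts were among the most abundant RNAs of these cells, ranking 6 to 28 of all listed genes by larger mean in the authors' deposited tables. mt-Nd1 was the highest of the 7 in every group.

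mt-Nd2, mt-Nd4 and mt-Nd5 encode the antiporter-like subunits of the membrane arm, which carry proton channels. mt-Nd4 averaged 5895 RPKM in the anti-CTLA-4 group, 5303 in the anti-PD-1 DANA group, a computed 1083 in the combination group and 3896 in the isotype group, from the authors' deposited tables. mt-Nd5 averaged 2125, 1891, a computed 253 and 1486 RPKM in these groups in the same order, from the authors' deposited tables. In RPKM the combination was the lowest group for both genes and isotype the next, with the single antibodies above. On the authors' scaling the single antibodies were below isotype and uncalled. The log2 fold changes for anti-CTLA-4 and anti-PD-1 DANA were -0.35 and -0.37 for mt-Nd4, and -0.43 and -0.47 for mt-Nd5. The combination level of mt-Nd5 was 0.170 times that of isotype, the lowest such ratio of the 7, and that of mt-Nd4 was 0.278 times. mt-Nd2 averaged 3418 RPKM under anti-CTLA-4, 4572 under anti-PD-1 DANA, a computed 1363 under the combination and 3281 under isotype, from the authors' deposited tables, so that here anti-CTLA-4 and isotype were 1.04-fold apart.

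mt-Nd1 encodes the subunit at the foot of the membrane arm that forms much of the ubiquinone pocket. Its mean was 13279 RPKM under anti-CTLA-4, 13272 under anti-PD-1 DANA, a computed 3253 under the combination and 7866 under isotype, from the authors' deposited tables. The single antibodies were both 1.69-fold above isotype on this scale and the combination was at 0.414 times isotype.

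mt-Nd3, mt-Nd4l and mt-Nd6 encode the small subunits that join the foot to the antiporter-like chain. mt-Nd4l averaged 5090 RPKM under anti-CTLA-4, 3973 under anti-PD-1 DANA, a computed 564 under the combination and 2934 under isotype, from the authors' deposited tables. mt-Nd6 averaged a computed 1863 RPKM under anti-CTLA-4, 2620 under anti-PD-1 DANA, a computed 1106 under the combination and 2134 under isotype, from the authors' deposited tables. mt-Nd4l followed mt-Nd4 and mt-Nd5, whereas mt-Nd6 spread less between groups, with the combination at 0.518 times isotype. The mt-Nd6 values include any reads of the opposite strand. mt-Nd3 averaged 1858 RPKM under anti-CTLA-4, 2785 under anti-PD-1 DANA and 1557 under both, from the authors' deposited tables, against a computed 868 under isotype. All 3 treated groups were thus above isotype for mt-Nd3, and the isotype mean computed separately from each table was 874, 868 and 867 RPKM. mt-Nd3 was the lowest of the 7 in the isotype and anti-CTLA-4 groups, rank 5 for anti-PD-1 DANA and rank 2 for the combination.

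**Figure D1:**
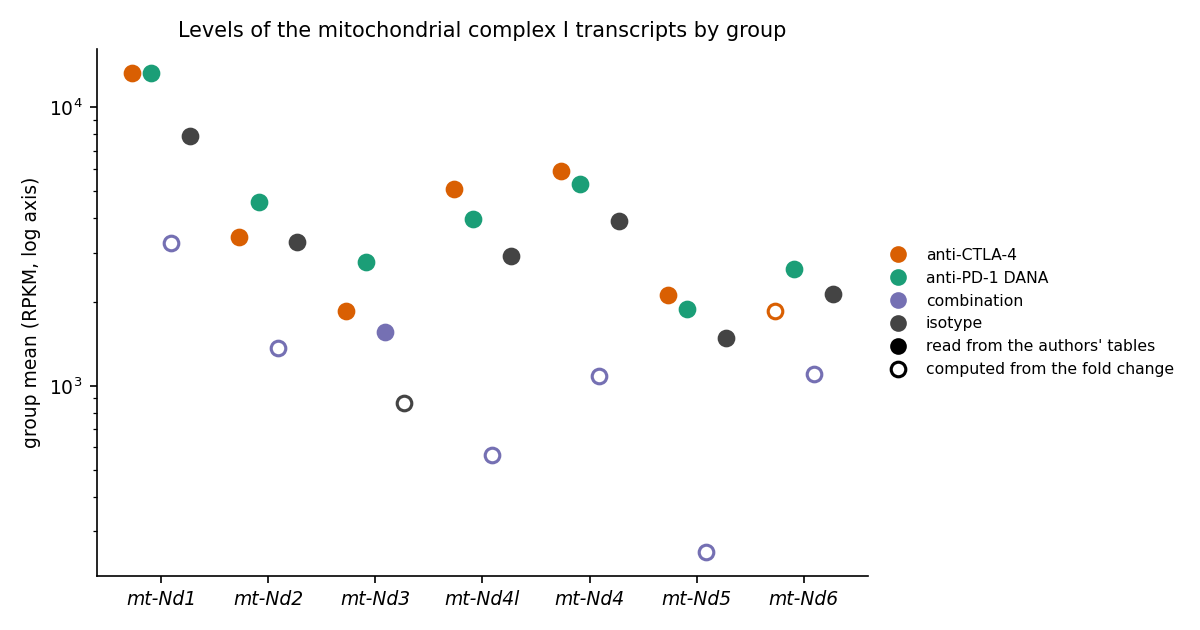
Group means of the 7 genes in RPKM on a log axis, with the treated groups left of isotype. Filled points are means read from the authors' deposited tables and open points were computed from the fold change; the combination is the lowest group for every gene except mt-Nd3, where isotype is lowest at 868 RPKM.

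Summed as reads, the 7 transcripts took 3.14% of reads in the anti-CTLA-4 group, 3.17% in the anti-PD-1 DANA group and 0.777% in the combination group, against 2.13% in the isotype group. The 6 other protein-coding genes of chromosome MT took 9.50% under anti-CTLA-4, 9.83% under anti-PD-1 DANA and 2.27% under both, against 6.20% under isotype. The combination held 0.365 times the isotype share for complex I and 0.366 times for the others, so the sums moved by nearly the same factor. These sums use the computed means where no mean could be read. In bulk RNA, fewer cells with high levels and less of this RNA per cell cannot be told apart.

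The scaling turns the sign of most single-antibody values and has to be read beside them. mt-Nd3 was above 0 for both antibodies, and mt-Nd6 below 0 for anti-CTLA-4, on each of the scales used here. The deposited log2 fold changes were not on the RPKM scale: where both group means of a gene are known, the log2 ratio of the means exceeded the deposited log2 fold change by a median of 0.94 in the anti-CTLA-4 table (418 genes), 0.82 in the anti-PD-1 DANA table (229 genes) and 0.11 in the combination table (177 genes). On the authors' scaling the median tested gene had a log2 fold change of -0.62, -0.45 and -0.42 in the authors' deposited tables, in that order.

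Under anti-CTLA-4 none of the 7 was called at an adjusted p (the authors' Benjamini-Hochberg false discovery rate over all listed genes) under 0.05. Of all tested genes 4.23% were called in the authors' deposited table, 2.74% higher and 1.49% lower, and on the RPKM scale the split was 6.66% higher and 1% lower. The lowest values in the authors' deposited table were those of mt-Nd6, -1.14 ± 0.36 (log2, ± the standard error implied by the deposited p; adjusted p = 0.0754), and mt-Nd2, -0.91 ± 0.35 (adjusted p = 0.219). The unadjusted p was under 0.05 for these 2 of the 7. The other 5 lay between -0.43 and 0.14 in the authors' deposited table, all with an adjusted p of 0.999989. The median of the 7 was -0.35 in the authors' deposited table, above the median of all tested genes, and 0.60 on the RPKM scale, where 6 of the 7 were above 0 and none was called.

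Under anti-PD-1 DANA none of the 7 was called either, beside 3.75% of all tested genes in the authors' deposited table (2.43% higher and 1.32% lower; 5.89% and 0.931% on the RPKM scale). mt-Nd3 was the highest at 0.87 ± 0.39 (log2; adjusted p = 0.387 in the authors' deposited table) and was the 1 gene of the 7 with an unadjusted p under 0.05. The other 6 lay between -0.52 (mt-Nd6) and -0.07 (mt-Nd1) in the authors' deposited table, with a median of all 7 of -0.37. On the RPKM scale all 7 were above 0, with a median of 0.45, and mt-Nd3, at 1.68, was called there with an adjusted p of 0.00301.

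With the combination the authors' deposited table called 5 of the 7 lower, beside 7.53% of all tested genes, 3.59% lower and 3.94% higher. mt-Nd5 fell by 2.66 ± 0.33 on the log2 scale in the authors' deposited table (6.32-fold lower, adjusted p = 2.704e-11). mt-Nd4l fell by 2.49 ± 0.36 (5.60-fold, adjusted p = 7.247e-08) and mt-Nd4 fell by 1.95 ± 0.33 (3.87-fold, adjusted p = 7.215e-06) in the authors' deposited table. These 3 genes follow each other among the protein-coding genes of the chromosome and held the largest decreases of the 7. mt-Nd1 fell by 1.38 ± 0.33 (2.60-fold, adjusted p = 0.00473) and mt-Nd2 fell by 1.37 ± 0.35 (2.59-fold, adjusted p = 0.00948) in the authors' deposited table. The values of these neighbours at the start of the coding region differed by -0.01 (log2) under the combination. They differed by 0.71 under anti-CTLA-4 and by 0.29 under anti-PD-1 DANA.

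The remaining members were not called in the combination. mt-Nd6 had -1.05 ± 0.36 (log2, adjusted p = 0.0953) and mt-Nd3 had 0.74 ± 0.39 (adjusted p = 0.642) in the authors' deposited table. The median of the 7 was -1.38, against -0.42 for all tested genes, and 6 had an unadjusted p under 0.05. Moved to the RPKM scale, the same 5 genes were called lower, beside 3.39% of all tested genes lower and 4.23% higher, and the median was -1.27. Centred on the median tested gene instead, where 2.73% of all tested genes were called lower, mt-Nd1 and mt-Nd2 were no longer called, with adjusted p of 0.0957 and 0.146, and mt-Nd4l, mt-Nd4 and mt-Nd5 were.

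**Figure D2:**
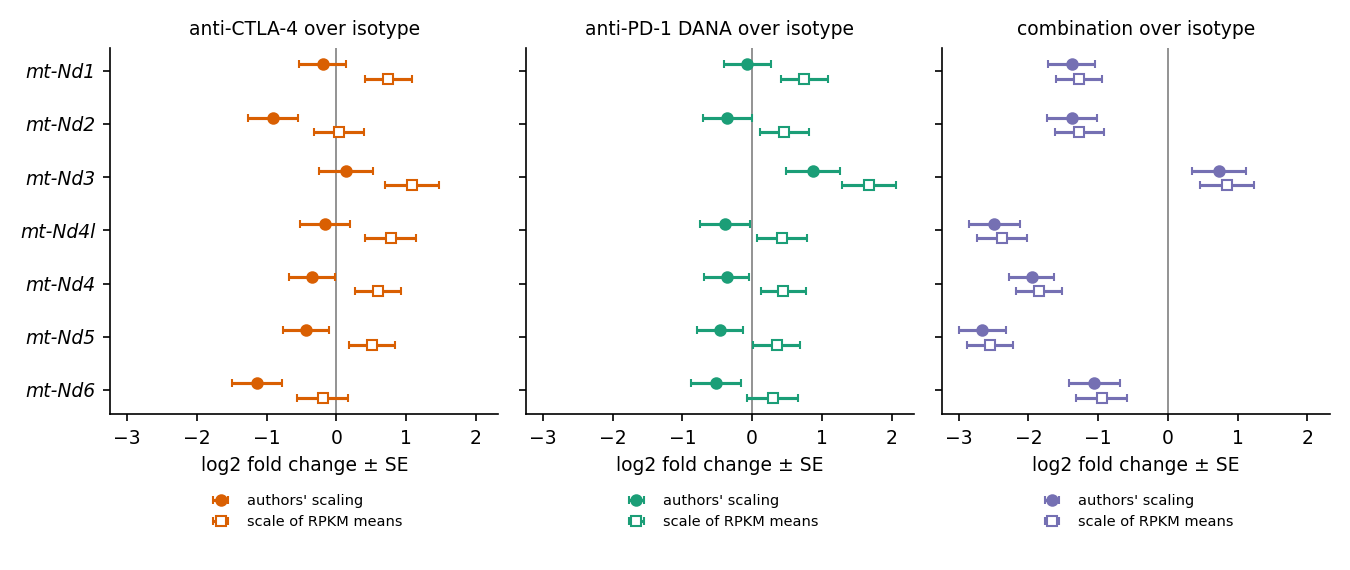
Log2 fold changes of the 7 genes over isotype, ± the implied standard error, in 1 panel per treatment. Filled circles are the values of the authors' deposited tables and open squares the same values on the RPKM scale; for the single antibodies most genes lie below 0 on the first scale and above it on the second, while for the combination 6 of 7 lie below 0 on both.

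Abundant nuclear RNAs had other values. The authors' deposited tables hold 68 tested nuclear genes with a larger mean of 500 RPKM or more in any table. Their median log2 fold change under the combination was 0.68 and the lowest value was -1.25. Of the 68, 4 (5.88%) were called, beside 7.53% of all tested genes. In this group 2 of 68 lay below -1, and of the mitochondrial complex I genes 6 of 7 did. A gene could enter the group through a high mean in the combination only. Gm15564 did, with larger means of 317 RPKM for each single antibody and 1416 RPKM for the combination. This choice can raise the combination median of the group, so the contrast and the centring below are descriptions. Under anti-CTLA-4 the median of the abundant nuclear genes was -0.71, and under anti-PD-1 DANA it was -0.24. Centred on these genes, the median of the 7 was 0.36 under anti-CTLA-4, -0.13 under anti-PD-1 DANA and -2.06 under both.

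Annotated ribosomal RNA-like genes were also looked at, after their values had been seen. Gm15564 had log2 fold changes of -2.57 ± 0.39 under anti-CTLA-4, -1.50 ± 0.39 under anti-PD-1 DANA and 2.05 ± 0.39 under both in the authors' deposited tables (adjusted p = 8.671e-07, 0.0175 and 0.0002033). Rn18s-rs5, a copy of the cytoplasmic 18S ribosomal RNA, had -2.56, -1.46 and 1.16 in the authors' deposited tables (adjusted p = 2.483e-06, 0.0274 and 0.0946). In the authors' deposited tables their signs were those of the members' medians for the single antibodies and opposite to that of the members' median for the combination, and their part in the result was not tested.

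The members also differed from each other by position. Differences between the log2 fold changes of neighbours do not depend on the scaling. The level ratios of mt-Nd4l over mt-Nd3 for the combination and for isotype set a computed mean against a read mean. Those ratios thus carry the offset between the authors' scaling and RPKM. mt-Nd3 and mt-Nd4l are separated by 70 bases that hold a tRNA gene. The level of mt-Nd4l over that of mt-Nd3 was 2.74 under anti-CTLA-4, 1.43 under anti-PD-1 DANA and 0.362 under both, against 3.38 under isotype. The order of this pair was thus turned round in the combination, and their log2 fold changes there differed by -3.23 (9.35-fold) in the authors' deposited table. mt-Nd4l over mt-Nd4, the pair on 1 bicistronic RNA, was 0.864, 0.749 and 0.520 in the same order, against 0.753 under isotype, and the pair's log2 fold changes in the combination differed by -0.53. mt-Nd5 and mt-Nd6, which overlap on opposite strands, differed there by -1.60 (3.04-fold) in the authors' deposited table, by 0.71 (1.63-fold) for anti-CTLA-4 and by 0.05 for anti-PD-1 DANA. Reads of the opposite strand within mt-Nd6 can enter these differences.

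The combination can be set against each antibody through the difference of the deposited log2 fold changes, in which isotype cancels. These differences use the same combination values as above, so they are a description too. Against anti-CTLA-4, 3 of the 7 were called lower, beside 0.903% of all tested genes (0.471% lower and 0.432% higher; 1.5% lower and 0.135% higher on the RPKM scale). The difference was -2.32 ± 0.36 for mt-Nd4l (log2), -2.22 ± 0.33 for mt-Nd5 and -1.61 ± 0.33 for mt-Nd4. mt-Nd1 had -1.18 ± 0.33, mt-Nd2 -0.46, mt-Nd6 0.09 and mt-Nd3 0.59. On the authors' scaling the 95% interval of the difference was -0.63 to 0.80 for mt-Nd6 and -0.16 to 1.35 for mt-Nd3.

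Against anti-PD-1 DANA, 4 of the 7 were called lower, beside 0.449% of all tested genes (0.252% lower and 0.196% higher; 1.1% lower and 0.174% higher on the RPKM scale). With an upper bound of the error, which does not assume equal variances, 1 was called lower here (beside 0.0168% of all tested genes) and 2 against anti-CTLA-4 (beside 0.0224%). The difference here was -2.19 ± 0.33 for mt-Nd5 (log2), -2.10 ± 0.36 for mt-Nd4l, -1.59 ± 0.33 for mt-Nd4 and -1.31 ± 0.33 for mt-Nd1. mt-Nd2 had -1.02 ± 0.35, and the 95% intervals of mt-Nd3 (-0.89 to 0.63) and mt-Nd6 (-1.25 to 0.18) included 0. On the RPKM scale mt-Nd1, mt-Nd2, mt-Nd4l, mt-Nd4 and mt-Nd5 were called lower against both antibodies.

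**Figure D3:**
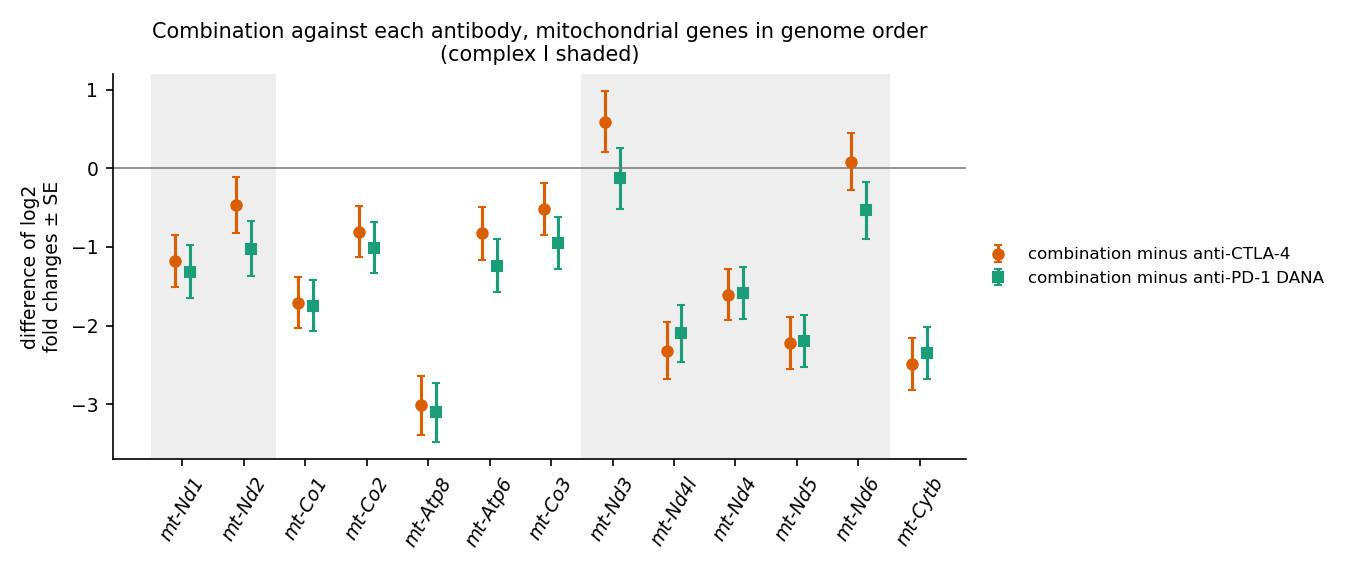
Combination minus each single antibody, as the difference of deposited log2 fold changes ± standard error, for the 13 protein-coding genes of chromosome MT in genome order with complex I shaded. mt-Nd4l, mt-Nd4 and mt-Nd5 lie between -2.32 and -1.59; mt-Nd3 and mt-Nd6 lie nearest to 0 against anti-PD-1 DANA, and mt-Nd6 (0.09) and mt-Nd2 (-0.46) against anti-CTLA-4.

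The other mitochondrial protein genes ran from -3.13 to -0.83 under the combination in the authors' deposited table, and the complex I genes from -2.66 to 0.74. The authors' deposited table for the combination called 5 of 6 lower, with a median of -1.69. The lowest in the authors' deposited table were mt-Atp8, a membrane subunit of ATP synthase, at -3.13 ± 0.38 (adjusted p = 5.408e-12), and mt-Cytb, the core of complex III, at -2.61 ± 0.33 (adjusted p = 3.966e-11). Of the cytochrome c oxidase subunits, mt-Co1 had -2.01, mt-Co2 -1.36 and the uncalled mt-Co3 -0.83 (adjusted p = 0.208), and mt-Atp6 had -1.24 in the authors' deposited table. None of the 6 was called under either single antibody. The low and high values were not grouped by respiratory complex: complex I held both mt-Nd5 at -2.66 and mt-Nd3 at 0.74, and ATP synthase both mt-Atp8 and mt-Atp6.

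The nuclear subunits of complex I were much scarcer in these tables and their errors were larger. Of the 37 names listed, 36 were found and tested, and their median implied standard error was 1.08, against 0.33 to 0.39 for the mitochondrial genes. None of the 7 core subunits was called in any comparison. Under the combination Ndufs7 (1.22 ± 1.06) and Ndufs8 (0.90 ± 0.87), which carry iron-sulfur clusters, were the highest, and Ndufs1 (-2.25 ± 1.38) the lowest of the core in the authors' deposited table. The adjusted p was 0.979 for Ndufs1 and 0.999873 for Ndufs7 and Ndufs8.

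Of all tested genes 4.23% were called under anti-CTLA-4, 3.75% under anti-PD-1 DANA and 7.53% under both. Of 29 accessory subunits tested 1 was called, Ndufc2, a small membrane-arm subunit. It rose by 6.52 ± 1.46 under anti-CTLA-4 (adjusted p = 0.00428), 6.92 ± 1.46 under anti-PD-1 DANA (adjusted p = 0.00248) and 7.42 ± 1.46 under both (adjusted p = 0.000421) on the log2 scale in the authors' deposited tables, with larger means of 31.9, 38.7 and 33.1 RPKM. Fold changes of this size depend on the authors' fit, since the lower group mean is not shown and by that fold change lies near 0. The comparisons share the same isotype libraries, so the rises of Ndufc2 are not independent of each other. The uncalled extremes under the combination were Ndufa10 (-3.11 ± 0.97, adjusted p = 0.0504), Ndufs4 (-2.10 ± 1.54) and Ndufb3 (2.84 ± 1.38) in the authors' deposited table. The median of all 36 nuclear subunits under the combination was 0.42, with 22 above 0, against -1.38 for the 7 mitochondrial subunits, and it was -0.63 for anti-CTLA-4 and -0.40 for anti-PD-1 DANA in the authors' deposited tables.

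**Figure D4:**
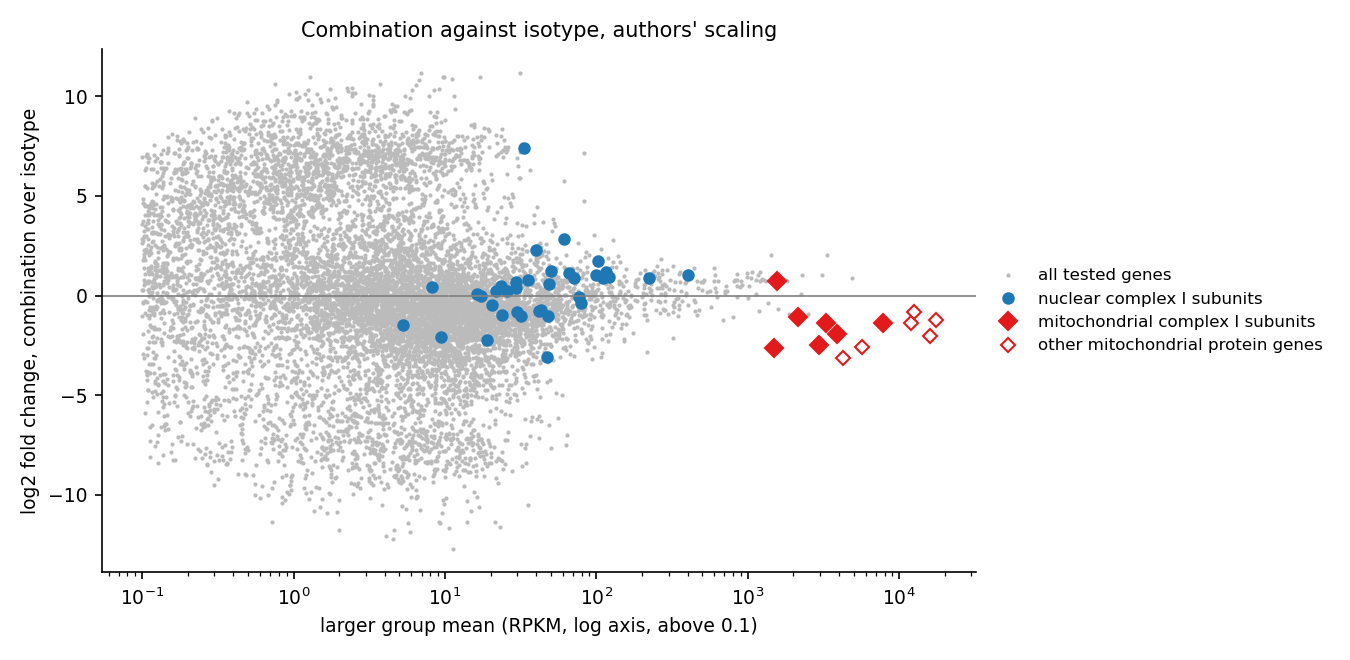
Log2 fold change of the combination over isotype against the larger group mean in RPKM (log axis), from the authors' deposited table. The mitochondrial protein genes sit at the right, with 6 of 7 complex I genes below -1, and the nuclear complex I subunits spread around a median of 0.42 at lower levels.

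Assembly factors bring the subunits together and do not stay in the finished complex. Of 15 names 14 were tested. Under the combination 3 were called higher in the authors' deposited table, beside 3.94% of all tested genes. They were Nubpl (8.64 ± 2.51), which delivers iron-sulfur clusters, and the membrane-arm factors Timmdc1 (7.56 ± 1.99) and Tmem126b (6.88 ± 1.63). Another 3 were called lower there, beside 3.59% of all tested genes. They were Ndufaf2 (-7.24 ± 1.88), a late factor, Foxred1 (-6.96 ± 1.89) and Ndufaf3 (-6.59 ± 1.95), an early factor of the peripheral arm. Their adjusted p was 0.00999, 0.0156 and 0.0324 in the authors' deposited table. Larger means of the 6 were 1.40 to 16.6 RPKM, the highest being Ndufaf2. Tmem126b (6.14) and Timmdc1 (7.48) were called higher under anti-CTLA-4 in the authors' deposited table, beside 2.74% of all tested genes. Tmem126b (5.71) was called higher under anti-PD-1 DANA, beside 2.43%. With isotype shared by the comparisons, repeated calls of a gene are not independent. No assembly factor was called lower under a single antibody, and none was called between the combination and either antibody.

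Of 27 nuclear genes for mitochondrial transcription and RNA processing 5 were called under the combination, beside 7.53% of all tested genes. Polrmt, the RNA polymerase that transcribes mitochondrial DNA, was the 1 called lower, at -8.56 ± 1.69 (log2, adjusted p = 0.000421) with a larger mean of 15.4 RPKM in the authors' deposited table. Called higher there were Tefm (8.76 ± 2.53), its elongation factor, Mterf4 (6.81 ± 2.05), a ribosome assembly factor, Mtpap (6.38 ± 1.71), the mitochondrial poly(A) polymerase, and Supv3l1 (5.44 ± 1.62), a helicase of RNA decay, with larger means of 1.94 to 5.16 RPKM in the authors' deposited table. Supv3l1 and Mtpap were also called higher under anti-CTLA-4 (6.97 and 7.08) and under anti-PD-1 DANA (5.92 and 6.12) in the authors' deposited tables. These comparisons share the isotype libraries, so repeated calls of a gene are not independent of each other. Fastkd2 and Fastkd5 were called higher for anti-CTLA-4 and Grsf1, which binds mitochondrial RNA, for anti-PD-1 DANA. Tfam, which packages mitochondrial DNA and starts its transcription, was not called under the combination (-2.06 ± 1.42). Polrmt was the 1 gene of the list called between the combination and an antibody, lower against anti-PD-1 DANA. Whether these nuclear changes bear on the mitochondrial RNAs was not tested.

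The genes nearest to the members' pattern were sought among 1534 tested genes outside chromosome MT with a larger mean of 20 RPKM or more in every table, by the distance of their 3 log2 fold changes from the members' medians of -0.35, -0.37 and -1.38. They were the T cell receptor segments Trbj1-2 (distance 0.26) and Trbj2-3 (0.29), Ubash3a (0.34), a negative regulator of T cell receptor signalling, Atp5b (0.34), the catalytic beta subunit of ATP synthase, and Gm10053 (0.36). Under the combination Atp5b had -1.05 and Ubash3a -1.67 in the authors' deposited table. None of the 5 was called in any comparison.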

How the data were processed

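RNA of 12 libraries (3 in each of 4 groups) was amplified from 0.25 ng by 21 cycles after oligo-dT priming, as in Smart-seq2, and given Nextera adapters, per the labels' protocols. The labels' protocols name CLC Genomics Workbench for alignment and quantification, and the submitters' processing notes name the build GRCm38.p5. The program's version is not given in the sources used here, and neither are its annotation release and the model of the test. The larger group mean in each table is in RPKM as the authors deposited it, computed by them from reads mapped to each gene; the unit was read from the values. Beside it the authors deposited the log2 fold change, the fold change with its sign, p-values, false discovery rates and Bonferroni p-values of that treatment against isotype. Of 48709 genes 30876 were not tested. The deposited false discovery rate was recomputed as a Benjamini-Hochberg adjustment over all listed genes, with a largest mean difference of 0.00014.

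An implied standard error divides the size of the log2 fold change by the normal quantile that matches the deposited p-value, as in a Wald test. For each member the 3 tables gave the same error within 0.0621%. A group mean above the smallest larger mean of the 3 tables belongs to the treated group, and the smallest bounds isotype. The RPKM offset used genes with both means known and 5 RPKM or more. Combination against single antibody took errors from equal variances for the 57.4% of tested genes whose 3 errors agree within 5%, and an upper bound otherwise, adjusted over all listed genes; these calls rest on a normal approximation. The scripts (Python 3.11.15, numpy 2.4.6, pandas 2.3.3, scipy 1.17.1) were tested on simulated data. Of the listed genes 48349 (99.3%) matched GENCODE M21, which gave transcripts and exon lengths; nuclear copies are 50-base windows of a member found in a nuclear transcript.

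The members and all gene lists were chosen with earlier results of these data known. Named were all members, all protein-coding and rRNA genes of chromosome MT, and of each nuclear list the called genes and the highest and lowest 2 with 5 RPKM or more, of which the text gives a selection for the single antibodies. The nuclear genes so named are reported with 1 left out. Alternatives were adjustment over tested genes, Bonferroni adjustment, the RPKM scale, centring on the median tested gene, a minimum of 5 RPKM and the upper bound of the error. Centring on abundant nuclear genes, leaving out members with nuclear copies and the RPKM scale between treated groups were added after seeing the data. Depth per library is unknown from these tables.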

Additional observations from a re-analysis of the deposited data

How the results depend on the processing

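No paired analysis was possible because the tables hold comparisons and no values per library; leaving out a library could not be run for the same reason. The RPKM scale and centring on the median tested gene turned the sign of most single-antibody values, the first by adding its offset and the second by subtracting the median tested gene. On the RPKM scale anti-CTLA-4 gave a member median of 0.60, with mt-Nd1 at 0.75, mt-Nd2 at 0.036, mt-Nd4l at 0.78, mt-Nd4 at 0.60 and mt-Nd5 at 0.51 (log2). Centred, its median was 0.27, with mt-Nd1 at 0.42, mt-Nd4l at 0.45, mt-Nd4 at 0.27 and mt-Nd5 at 0.18, and against abundant nuclear genes its median was 0.36. For anti-PD-1 DANA the RPKM scale gave a median of 0.45, with mt-Nd1 at 0.75, mt-Nd2 at 0.46, mt-Nd4l at 0.43, mt-Nd4 at 0.45, mt-Nd5 at 0.35 and mt-Nd6 at 0.30. Centred, its median was 0.087, with mt-Nd1 at 0.39, mt-Nd2 at 0.10, mt-Nd4l at 0.067 and mt-Nd4 at 0.087, while mt-Nd5 (-0.012) and mt-Nd6 (-0.066) stayed below 0, as did the median of -0.13 against abundant nuclear genes. On both scales 1 member, mt-Nd3, was called higher for anti-PD-1 DANA (beside 5.89% and, centred, 4.07% of all tested genes).

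Adjusted over tested genes, 1 member (beside 3.02% of all tested genes) was called lower for anti-CTLA-4. Under the combination 6 members (beside 5.69%) were called lower in this way. Of the 36 nuclear subunits 2 were called there, beside 12.5% of all tested genes in either direction. Under the combination 3 members were called with Bonferroni adjustment (beside 0.258%) and 3 when centred (beside 2.73%), where the median was -0.96, and the median was -2.06 against abundant nuclear genes. Against anti-CTLA-4 the combination had 5 members called lower on the RPKM scale (beside 1.5%), and against anti-PD-1 DANA 1 with the upper bound of the error (beside 0.0168%). On the RPKM scale anti-CTLA-4 had 5 assembly factors called (beside 7.67% of all tested genes), against 2 in the authors' deposited table (beside 4.23%). Without mt-Nd3 and mt-Nd4l, the members with near-complete nuclear copies, the medians were -0.43, -0.37 and -1.38. The lower group mean of scarce nuclear genes is not shown by the tables, which limits what their fold changes say.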

Other observations

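The rRNA and tRNA genes of chromosome MT were listed and not tested in the authors' deposited tables, 24 genes with 22 tRNAs among them. mt-Rnr2, the large mitochondrial ribosomal RNA, had a larger group mean of 23267 RPKM in the anti-CTLA-4 table, 29407 in the anti-PD-1 DANA table and 17360 in the combination table of the authors' deposited tables. mt-Rnr1, the small ribosomal RNA, had 7016, 9031 and 6013 RPKM in the same tables of the authors' deposited tables. For these genes the group that holds the larger mean in the combination table cannot be read.

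Of the tRNA genes, 4 were listed at 0 throughout. The highest were mt-Tq, at 637, 660 and 538 RPKM, and mt-Te, at 272, 359 and 376 RPKM, in the authors' deposited tables in the same order. Both are encoded on the minus strand, mt-Tq antisense to the stretch between mt-Nd1 and mt-Nd2 and mt-Te directly upstream of mt-Nd6. Libraries primed on poly(A) without strand marks do not measure mature tRNAs reliably, and reads of the opposite strand cannot be told apart there.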
